A study of Mus musculus with 12 samples.

Results

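The cholinergic receptor genes described here are 4 muscarinic receptor genes (Chrm1, Chrm2, Chrm3 and Chrm5) and 6 neuronal nicotinic subunit genes (Chrna3, Chrna4, Chrna5, Chrna7, Chrnb2 and Chrnb4). They were taken by gene symbol from a count table of 33024 symbols, and all 10 were present. The table holds 12 cortex RNA libraries from C57BL/6 mice, 7 control and 5 ethanol-administered, each taken here as 1 mouse. The mice were 30 days old when drinking began, and no genetic change is given for either group. The ethanol-administered mice, labelled EtOH, were offered 20% (v/v) ethanol beside water for 12 h a night, over 35 sessions, whereas the controls, labelled Vehicle, had water in both bottles. By the study's account these animals belonged to the arm that then went 14 days without alcohol and through behavioural tests before the brain was taken, so the comparison asks what differs in the cortex well after drinking has stopped.

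Acetylcholine acts on both receptor classes. Muscarinic receptors are G protein-coupled: those encoded by Chrm1, Chrm3 and Chrm5 act through Gq, phospholipase C and the closure of M-type potassium channels, while those of Chrm2 and Chrm4 act through Gi and Go. Nicotinic receptors are pentameric cation channels, and in the cortex they are mostly assembled from alpha4 and beta2 subunits, with alpha5 as an accessory subunit, or from alpha7 alone. Cortical acetylcholine comes largely from basal forebrain neurons whose cell bodies lie outside the cortex, and the striatum has cholinergic interneurons of its own.

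Total counts were between 31768076 and 42183029 per mouse. Levels are given as CPM (counts scaled to a common library total) after normalization by TMM, a scaling that removes differences in library composition, and 3 counts amounted to between 0.0695 and 0.0962 CPM. The comparison of the groups used the quasi-likelihood test of edgeR over 16059 genes, and a gene was called at an adjusted p under 0.05 with a log2 fold change above 0.5 in size. Tissue markers did not match between the groups. All 13 striatum markers were called lower, their sum falling from between 1273 and 2829 CPM in the controls to between 292 and 348 CPM. Of 9 hippocampus markers 8 were called higher, with sums of 41.2 to 46.7 CPM in the controls and 149 to 195 CPM after ethanol. The expression filter asks for about 0.310 CPM in at least 5 mice. No control reached this for Iyd (at most 0.220 CPM), and only control mouse 5 did for Dsp (0.977 CPM). Both of these hippocampus genes were thus tested because of the ethanol-administered mice, in which they are high. None of 6 cortical excitatory neuron markers was called (sums of 5286 to 6738 CPM and 5916 to 7053 CPM), nor any of 5 microglia markers. Under the fold minimum, an adjusted p under 0.05 was reached by 3 of those excitatory markers (log2 fold changes of 0.36 for Neurod2, 0.26 for Neurod6 and -0.40 for Tbr1) and by microglia markers that included Tmem119 (-0.32) and Csf1r (-0.15). Where 4.20% of all genes were called higher and 4.09% lower, in deep layers 2 of 9 markers were called higher and 2 lower, of interneuron markers 2 of 8 were called lower, of oligodendrocyte markers 2 of 6 lower and of astrocyte markers 1 of 5 higher. In bulk tissue, a lower count of cells and less RNA per cell cannot be told apart, and the part of these markers in the results below was not tested unless a value is given.

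Of the 10 receptor genes, 1 was called higher in the ethanol-administered mice, Chrm5, and none was called lower (edgeR), where 8.29% of all genes tested were called. With no minimum on the fold change, 4 of the 10 had an adjusted p under 0.05, 3 of them higher (Chrm1, Chrm5 and Chrna7) and 1 lower (Chrm2), against 23.7% of all genes. Without ethanol-administered mice 1, 3 and 4, which had the most choroid plexus RNA, a comparison of 2 against 7 mice, the log2 fold changes of these 4 were 0.12 for Chrm1 (adjusted p = 0.306 by edgeR), -0.23 for Chrm2 (0.231), 0.25 for Chrna7 (0.438) and 0.60 for Chrm5 (0.520). With 2 ethanol-administered mice a p is larger for the same fold. These 3 mice also held the highest ethanol values of Chrm5 and Chrna7 and 2 of them the lowest of Chrm2, so folds nearer 0 without them follow from leaving them out and are no test of choroid plexus RNA, which holds for Lypd1 and Rgs4 below too. By direction, 7 of the 10 had a positive log2 fold change, and their median was 0.15 beside 7.21e-05 over all genes tested. The groups did not overlap for 1 of the 10, Chrm1, which was higher, where 9.81% of all genes had no overlap, 4.84% with higher and 4.96% with lower values after ethanol.

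**Figure D1:**
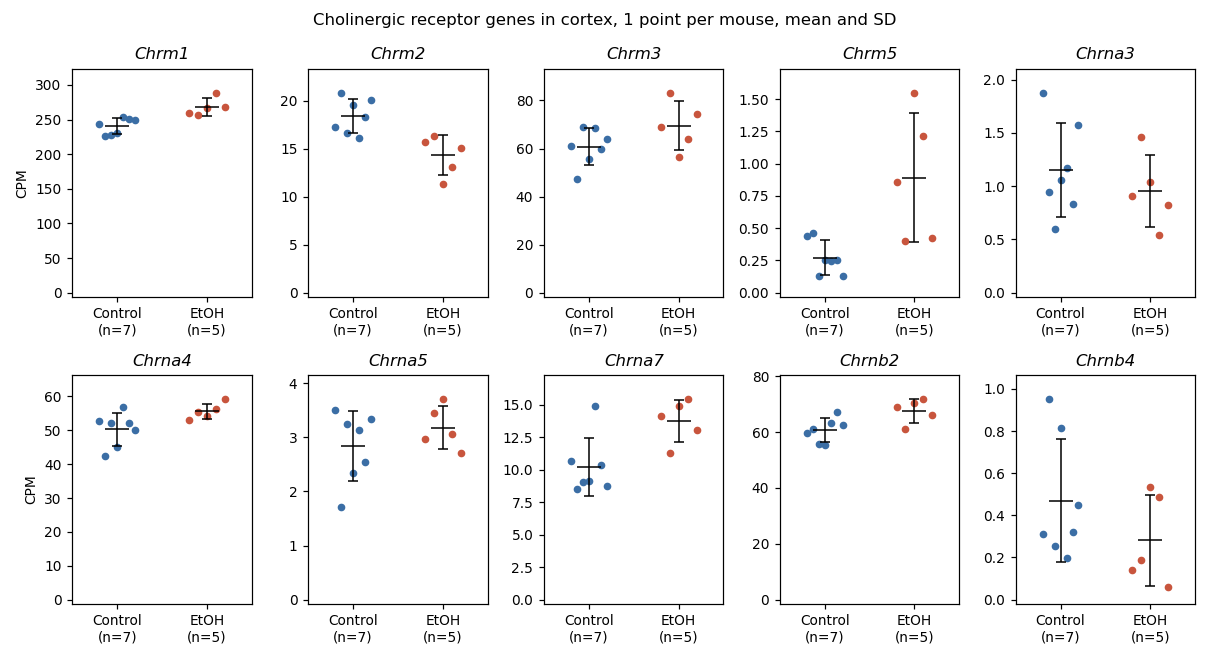
CPM (y axes, linear) of each receptor gene in 7 control and 5 ethanol-administered mice, 1 point per mouse with the group mean and SD. Chrm1 shows 5 ethanol-administered mice above every control mouse, Chrm2 has 4 of 5 below every control mouse, and Chrm5 is spread from 0.404 to 1.55 CPM after ethanol.

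Levels differ widely among the 10 genes. Per kilobase of merged exons, Chrm1 led in the controls with 30.1 ± 1.49 CPM per kilobase (SD, n = 7), followed by Chrm3 at 9.71 ± 1.22, Chrna4 at 9.61 ± 0.941, Chrnb2 at 7.19 ± 0.495, Chrm2 at 2.64 ± 0.26 and Chrna7 at 0.999 ± 0.218. Chrna5, Chrna3, Chrm5 and Chrnb4 were the least abundant, from 0.439 ± 0.101 down to 0.121 ± 0.0757 CPM per kilobase. Chrm3 and Chrna4 could not be ordered, since Chrm3 was the higher in 4 of 7 control and 3 of 5 ethanol-administered mice. The other neighbours down to Chrna5 were separated in every control mouse. Among the 4 least abundant genes the ranges of neighbours overlapped. The first 6 places were held by the same genes after ethanol, and Chrm5 moved from the ninth to the seventh place, where its range overlapped that of Chrna5.

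Chrm1 encodes the main muscarinic receptor of cortical and hippocampal pyramidal neurons and lies on chromosome 19 of GRCm39 from 8640962 to 8662278. It had between 226 and 254 CPM in the control mice (median 243, mean 241 ± 11.9, SD, n = 7). The ethanol-administered mice had 259, 257, 266, 289 and 269 CPM (mean 268 ± 12.8, SD, n = 5), so that each of them lay above every control mouse. The log2 fold change was 0.16 (standard error 0.05, 95% interval 0.05 to 0.26, adjusted p = 0.0306 by edgeR), below the fold minimum. The adjusted p passed 0.05 without control mouse 2, 3 or 4 or without ethanol-administered mouse 3, 4 or 5, and was 0.0895 at most. Of its merged exons 4.12% are shared with Gm54900 on the opposite strand, a gene that is not analysed here.

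Chrm3, the second Gq-coupled receptor gene, on chromosome 13 from 9925522 to 10410883, had 47.1 to 69.0 CPM in the controls (median 61.1). It had 69.2, 83.3, 56.6, 63.8 and 74.4 CPM in the ethanol-administered mice. Of these, 3 exceeded all controls and 2 fell within the control range. The log2 fold change was 0.19 (95% interval -0.01 to 0.40, adjusted p = 0.159 by edgeR).

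Chrm5 encodes the least abundant muscarinic receptor of the brain, best known from midbrain dopamine neurons. In the annotation it is a single exon of 1599 bases on chromosome 2, from 112309516 to 112311114 on the minus strand, that overlaps no other gene. The controls had 0.126 to 0.460 CPM (median 0.250, mean 0.272 ± 0.133, SD, n = 7), or 4 to 15 counts. The ethanol-administered mice had 0.858, 0.404, 1.55, 1.21 and 0.426 CPM (mean 0.890 ± 0.498, SD, n = 5), or 13 to 52 counts. Mice 1, 3 and 4 were above every control and mice 2 and 5 were inside the control range. The log2 fold change was 1.70 (standard error 0.39, 95% interval 0.87 to 2.52, adjusted p = 0.00461 by edgeR). Only 2 of 7 control mice, but 5 of 5 ethanol-administered mice, reached the level the expression filter asks for in at least 5 mice, so the gene was tested because of the group in which it is high.

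Chrm5 was highest in the mice with the most choroid plexus RNA. The choroid plexus list (Ttr, Folr1, Kl and Clic6), genes of the epithelium that secretes cerebrospinal fluid, summed to between 7.28 and 20.5 CPM in the controls. In ethanol-administered mice 1, 3 and 4 it summed to 118, 981 and 274 CPM, and in mice 2 and 5 to 20.1 and 10.7 CPM. Of these 4 genes, 3 were tested and 2, Ttr and Kl, were called higher, while none was at 0 in any mouse. All 4 were higher in mice 1, 3 and 4 than in mice 2 and 5. In mice 1, 3 and 4, Ttr made up most of the sum (97.8, 911 and 241 CPM). Clic6 was not called (log2 fold change 0.36, adjusted p = 0.649 by edgeR), and its 4.22 CPM in mouse 1 lay within the control range. Kl was above every control in every ethanol-administered mouse, mice 2 and 5 included (8.84 and 8.09 CPM, against at most 3.71 CPM). The hippocampus sum was highest in mouse 2 (195 CPM), as were 8 of the 9 genes of that list among the ethanol-administered mice, and the exception, Fibcd1, was highest in mice 3 and 4 (89.2 and 102 CPM, against 51.4 to 61.7 CPM in the others). Mice 1, 3 and 4 are also the 3 with the most Chrm5, so the lower fold without them, given above, follows from leaving them out and is no test of choroid plexus RNA. That comparison was chosen after the values were seen. Leaving out 1 mouse at a time kept the call, with log2 fold changes from 1.41 to 1.87. The part of choroid plexus and hippocampus RNA in the Chrm5 result was not tested.

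**Figure D2:**
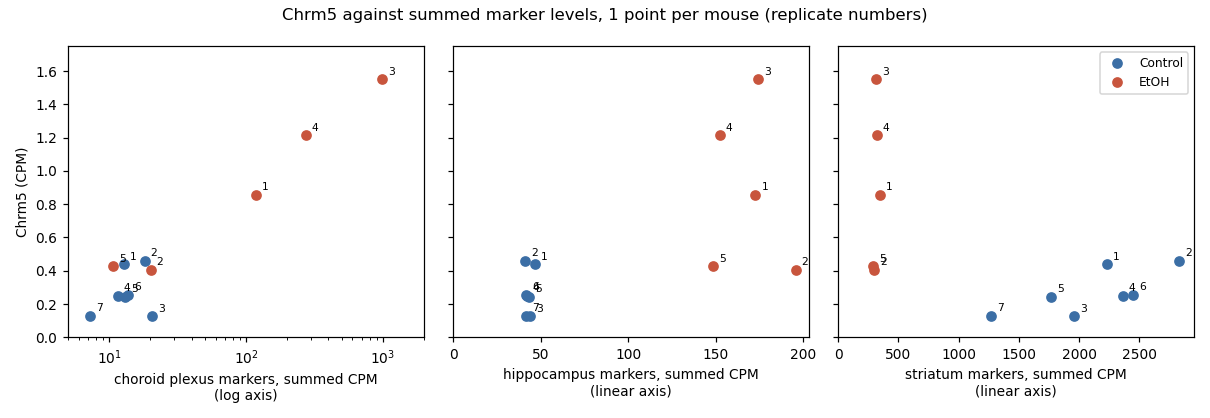
Chrm5 in CPM (y axis) against the summed CPM of the choroid plexus (x, log axis), hippocampus and striatum (x, linear axes) marker lists, 1 point per mouse with its replicate number. The 3 ethanol-administered mice with Chrm5 from 0.858 to 1.55 CPM are those with choroid plexus sums from 118 to 981 CPM, and the other 2 lie beside the controls in the choroid plexus panel but not in the other panels.

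Over the 12 mice, the 3 genes (of 14173 with at least 1 CPM on average) whose log2 CPM was most like that of Chrm5 were Tnfaip8l3 (Pearson r = 0.945), Kl (r = 0.929, also on the choroid plexus list) and Tmem255a (r = 0.929). After group means were removed these values were 0.869, 0.851 and 0.889. They describe the same 12 libraries that gave the call and carry no test.

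Chrm2, the Gi-coupled receptor gene whose product is also a presynaptic autoreceptor on cholinergic terminals, lies on chromosome 6 from 36364718 to 36505582. It was the 1 member with an adjusted p under 0.05 and a negative log2 fold change. It had 16.1 to 20.8 CPM in the controls (median 18.2, mean 18.4 ± 1.81, SD, n = 7) and 15.7, 16.3, 11.3, 13.1 and 15.1 CPM in the ethanol-administered mice (mean 14.3 ± 2.08, SD, n = 5). All but mouse 2 were below every control. The log2 fold change was -0.36 (standard error 0.10, 95% interval -0.56 to -0.16, adjusted p = 0.0114 by edgeR), which is under the fold minimum. Of its merged exons 16.1% are shared with the antisense RNA 9330158H04Rik, which was called lower (log2 fold change -1.0, adjusted p = 0.0123 by edgeR) at 1.04 CPM in the controls and 0.520 CPM after ethanol.

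Ratios within a mouse set receptor genes of the same library against each other. The log2 ratio of Chrm2 to Chrm1 was -3.71 ± 0.18 (SD, n = 7) in the controls and -4.23 ± 0.26 (SD, n = 5) after ethanol, which differ by -0.52 (exact two-sided permutation test over 792 splits, p = 0.00253, adjusted over 7 ratios 0.0177), with 4 of 5 mice below all controls. Chrm2 thus made up 6.22% ± 0.849 of the summed per-kilobase level of the 4 muscarinic members in the controls and 4.34% ± 0.594 after ethanol, while Chrm1 stood at 70.6% ± 1.43 and 71.0% ± 3.01. The ratio of Chrm3 to Chrm1 differed by 0.04 (exact permutation p = 0.769). That of Chrm5 to Chrm1 differed by 1.29 (exact permutation p = 0.0114, adjusted 0.0398), on the same low Chrm5 counts, and adds no independent support to its call.

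**Figure D3:**
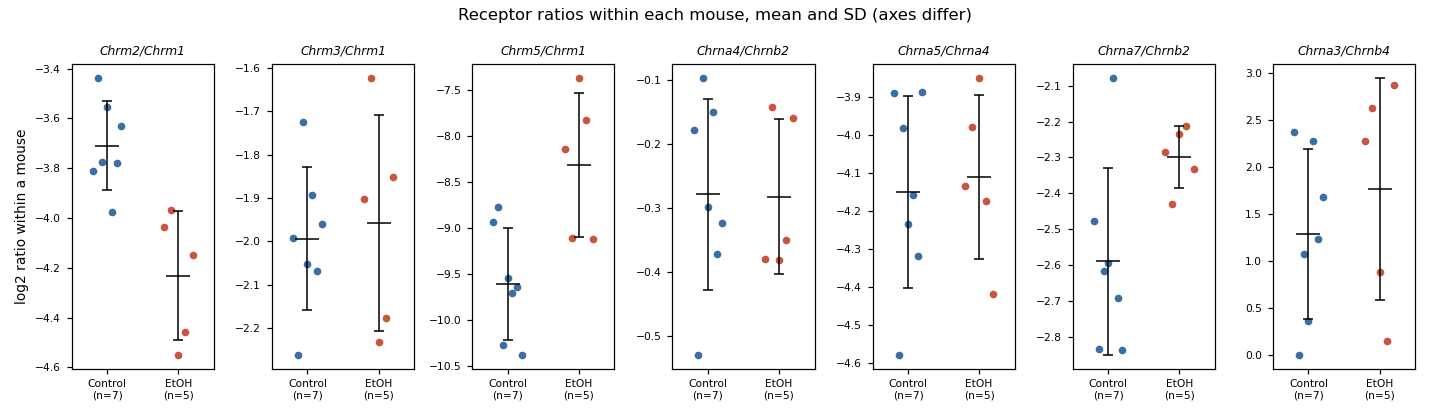
Log2 ratios of pairs of receptor genes within each mouse (y axes, which differ in range), for 7 control and 5 ethanol-administered mice, with group means and SD. Chrm2 to Chrm1 lies lower after ethanol by 0.52 and Chrna4 to Chrnb2 overlaps between the groups.

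The heteromeric nicotinic subunit genes Chrna4, on chromosome 2 from 180660173 to 180685339, and Chrnb2, on chromosome 3 from 89653502 to 89671953, encode the chief high-affinity nicotine-binding receptor of the brain. Chrna4 had 42.4 to 56.9 CPM in the controls (median 52.1) and 53.1, 55.3, 54.1, 56.3 and 59.1 CPM in the ethanol-administered mice, of which 1 exceeded every control. Its log2 fold change was 0.15 (95% interval 0.00 to 0.29, adjusted p = 0.124 by edgeR). Chrnb2 had 55.6 to 67.4 CPM in the controls (median 61.1) and 69.0, 61.1, 70.5, 71.7 and 66.0 CPM after ethanol, with 3 mice above all controls. Its log2 fold change was 0.15 (95% interval 0.03 to 0.28, adjusted p = 0.0663 by edgeR). Chrnb2 shares 16.2% of its merged exons with Adar on the opposite strand, an RNA-editing enzyme gene with a log2 fold change of 0.30 (adjusted p = 0.0247 by edgeR). The log2 ratio of Chrna4 to Chrnb2 was -0.28 ± 0.15 (SD, n = 7) in the controls and -0.28 ± 0.12 (SD, n = 5) after ethanol, a difference of -0.004 (exact permutation p = 0.966). The pair made up 90.5% ± 0.910 of the per-kilobase level of the 6 nicotinic members in the controls and 89.9% ± 0.844 after ethanol.

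Chrna7 encodes the alpha7 subunit, which forms calcium-permeable homomeric channels, and lies on chromosome 7 from 62731494 to 62862322. The controls had 8.52 to 14.9 CPM (median 9.16, mean 10.2 ± 2.23, SD, n = 7). The ethanol-administered mice had 14.1, 11.3, 14.9, 15.4 and 13 CPM (mean 13.8 ± 1.65, SD, n = 5). All 5 lay above 6 of the 7 controls, and control mouse 5, with 14.9 CPM, lay above 3 of them. The log2 fold change was 0.43 (standard error 0.13, 95% interval 0.16 to 0.70, adjusted p = 0.0211 by edgeR), below the fold minimum, and it was 0.54 (adjusted p = 0.000483), past that minimum, without control mouse 5. Without ethanol-administered mouse 3 or 4 the adjusted p was 0.0523 or 0.0578. The ratio of Chrna7 to Chrnb2 differed by 0.29 on the log2 scale (exact permutation p = 0.0429, adjusted 0.100).

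Chrna5, Chrna3 and Chrnb4 lie side by side on chromosome 9, between 54888164 and 54956076, and encode subunits that dominate in autonomic ganglia and the medial habenula. In the cortex alpha5 is found in deep-layer pyramidal neurons. None of the 3 passed the test. Chrna5 had 1.72 to 3.51 CPM in the controls (median 3.13) and 2.97, 3.45, 3.70, 3.06 and 2.71 CPM in the ethanol-administered mice, with a log2 fold change of 0.16 (95% interval -0.19 to 0.51, adjusted p = 0.504 by edgeR). Chrna3 had 0.600 to 1.88 CPM in the controls (median 1.06) and 0.904, 1.46, 1.04, 0.546 and 0.821 CPM after ethanol, with a log2 fold change of -0.27 (95% interval -0.88 to 0.34, adjusted p = 0.527 by edgeR). The groups overlapped for both. Chrnb4 had 0.195 to 0.950 CPM in the controls (median 0.319) and 0.139, 0.187, 0.537, 0.485 and 0.0608 CPM after ethanol, or 2 to 31 counts over all mice. Its log2 fold change of -0.74 had a 95% interval from -1.80 to 0.32 (adjusted p = 0.305 by edgeR), which leaves room for falls well past the fold minimum. Chrna3 and Chrna5 share 790 exon bases on opposite strands. Reads in these or the other shared exons above may have been left out or assigned to either gene, if strand was not used. The counting settings are not given. Of 5 medial habenula markers 4 were tested and none was called, and Pou4f1, which defines that nucleus, had at most 0.191 CPM in any of the 12 mice. Nwd2 of that list had 48.4 CPM in the controls and 62.6 CPM after ethanol. Its log2 fold change was 0.37 (adjusted p = 0.0137 by edgeR), under the fold minimum, and the other 3 tested had negative log2 fold changes.

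The promoters of the members differ in composition, and 9 of the 10 matched a RefSeq promoter (GRCm38.p6 coordinates), Chrm1 having no entry. The 250 bases before the annotated start are shown for Chrm5, Chrm2 and Chrna7, whose levels had an adjusted p under 0.05, with CpG dinucleotides in capitals.
Chrm5 (chr2:112480818-112481067, minus strand): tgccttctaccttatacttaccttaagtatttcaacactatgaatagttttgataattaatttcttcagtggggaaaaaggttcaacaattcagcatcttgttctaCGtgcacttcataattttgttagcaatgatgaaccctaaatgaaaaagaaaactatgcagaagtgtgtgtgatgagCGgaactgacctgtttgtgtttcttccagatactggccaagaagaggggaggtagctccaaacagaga
Chrm2 (chr6:36387834-36388083, plus strand): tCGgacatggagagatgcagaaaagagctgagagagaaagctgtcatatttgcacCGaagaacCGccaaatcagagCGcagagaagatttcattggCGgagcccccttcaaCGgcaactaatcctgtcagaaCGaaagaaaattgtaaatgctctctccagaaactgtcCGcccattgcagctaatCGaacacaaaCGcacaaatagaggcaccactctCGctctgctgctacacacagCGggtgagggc
Chrna7 (chr7:63212527-63212776, minus strand): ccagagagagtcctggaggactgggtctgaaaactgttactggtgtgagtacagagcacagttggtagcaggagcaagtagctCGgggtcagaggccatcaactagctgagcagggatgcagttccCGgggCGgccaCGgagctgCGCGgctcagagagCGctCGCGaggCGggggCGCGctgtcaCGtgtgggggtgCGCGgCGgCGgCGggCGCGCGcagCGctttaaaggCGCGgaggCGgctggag
Chrm5 holds 2 CpGs at 37.6% GC and Chrna7 holds 25 at 67.2%, with Chrm2 between them (12 at 50%), where the median of 32851 promoters is 6 CpGs and 52.4% GC. Chrm5 is annotated as a single exon of 1599 bases, and whether transcription begins at its annotated start was not tested. The GC box GGGCGG, searched on both strands, occurs in 32.7% of all those promoters. Chrna7 and Chrm2 hold 1 each and Chrm5 holds none.

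The remaining receptor genes were looked at as a list of 11, of which 6 were tested and 2 were called higher, while 4.20% of all genes were called higher. Chrna6, a subunit of dopamine neuron terminals, had 0.123 to 0.505 CPM in the controls and 0.788, 0.933, 0.656, 0.789 and 0.608 CPM in the ethanol-administered mice, each above every control. Its log2 fold change was 1.47 (standard error 0.33, adjusted p = 0.00377 by edgeR). Only 4 of 7 controls but 5 of 5 ethanol-administered mice reached the filter's level, so Chrna6, like Chrm5, was tested because of the group in which it is high. Chrna1, the subunit of the muscle receptor, had a log2 fold change of 0.99 (adjusted p = 0.0272 by edgeR), with 0.630 ± 0.334 CPM (SD, n = 7) in the controls and 1.25 ± 0.213 CPM (SD, n = 5) after ethanol. Chrna1 lost its call without control mouse 1 or 4 or without ethanol-administered mouse 1, 2 or 4, with log2 fold changes from 0.88 to 0.99 in those fits. Without ethanol-administered mice 1, 3 and 4, neither was called (log2 fold change 1.49 for Chrna6 and 1.02 for Chrna1, adjusted p = 0.0774 and 0.182 by edgeR). Chrm4, a Gi-coupled receptor known from striatal projection neurons, had 33.3 ± 3.81 CPM in the controls and 31.7 ± 9.51 CPM after ethanol, a log2 fold change of -0.07 (95% interval -0.38 to 0.24, adjusted p = 0.759 by edgeR). It ran from 19.0 to 43.4 CPM after ethanol, past the control range of 29.0 to 40.3 CPM on both sides. All 13 striatum markers were called lower, and Chrm4 was not.

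Most genes that make and handle acetylcholine fell. Of 8 genes of supply and breakdown, all tested, 5 were called lower, where 4.09% of all genes were, and none was called higher, with a median log2 fold change of -1.39. Chat, which encodes choline acetyltransferase, had 1.70 to 6.98 CPM in the controls (median 4.50) and 0.417, 0.218, 0, 0.243 and 0.304 CPM in the ethanol-administered mice. The groups did not overlap (log2 fold change -4.22, standard error 0.42, adjusted p = 1.55e-06 by edgeR). Slc18a3, the vesicular acetylcholine transporter gene, fell with a log2 fold change of -3.37 (adjusted p = 6.38e-05 by edgeR), and Slc5a7, the high-affinity choline transporter gene, with -3.06 (adjusted p = 4.61e-08 by edgeR). Slc5a7 had 4.39 to 10.3 CPM in the controls and 0.778 to 1.06 CPM after ethanol. Prima1 and Colq, whose products anchor acetylcholinesterase to membranes and to the extracellular matrix, had log2 fold changes of -1.43 and -1.34 (adjusted p = 3.45e-05 and 0.00127 by edgeR). Colq was not called without ethanol-administered mice 1, 3 and 4 (log2 fold change -1.0, adjusted p = 0.103 by edgeR). The esterase genes themselves were not called. Ache had 77.3 ± 6.41 CPM (SD, n = 7) in the controls and 69.7 ± 3.27 CPM (SD, n = 5) after ethanol, and Bche had a log2 fold change of 0.27 (95% interval -0.08 to 0.62, adjusted p = 0.250 by edgeR).

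**Figure D4:**
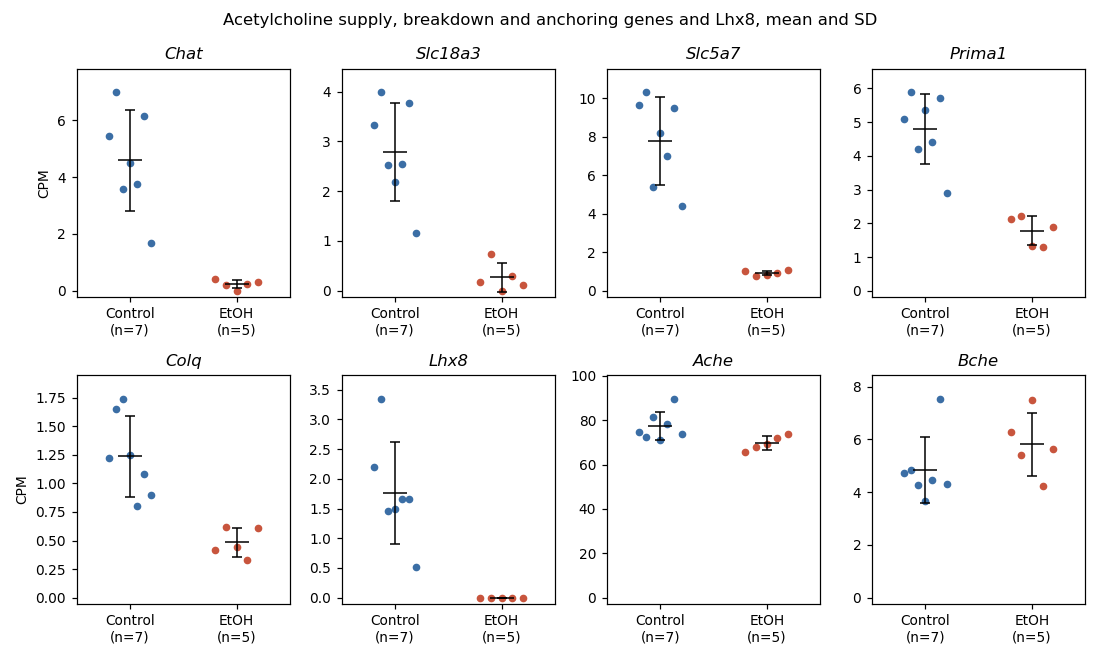
CPM (y axes, linear) of acetylcholine supply, breakdown and anchoring genes and of Lhx8 in 7 control and 5 ethanol-administered mice, with group means and SD. Chat, Slc18a3, Slc5a7, Prima1, Colq and Lhx8 have no overlap between the groups, and Ache and Bche do.

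All 6 markers of cholinergic neurons, 3 of which are the supply genes above, were called lower. All but Slc5a7 were below the filter's level in at least 4 of 5 ethanol-administered mice, so these 5 were tested because of the controls, in which they are high. The sum of the 6 was 9.46 to 32.1 CPM in the controls and 1.37 to 2.06 CPM in the ethanol-administered mice. Lhx8, a transcription factor of forebrain cholinergic neurons, had 0.513 to 3.34 CPM in the controls and no count in any ethanol-administered mouse, at least 18.8-fold lower against the floor of 3 counts per library. Control mouse 7, which had the lowest striatum sum of the controls (1273 CPM), also had the lowest cholinergic neuron sum (9.46 CPM). All 5 ethanol-administered mice lay below all 7 controls in the cholinergic neuron sum and in the striatum sum, and the part of striatal content in these differences was not tested.

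Proteins that assist or restrain nicotinic receptors were mostly not called. Of 9 listed genes 8 were tested, 1 was called higher and none lower, where 8.29% of all genes were called either way, with a median log2 fold change of 0.02. Lypd1, which encodes a lynx-family protein that binds nicotinic receptors, had 22.3 ± 3.39 CPM (SD, n = 7) in the controls and 41.5 ± 9.58 CPM (SD, n = 5) after ethanol, with no overlap (log2 fold change 0.90, standard error 0.13, adjusted p = 0.000122 by edgeR). It was highest in ethanol-administered mice 1, 3 and 4 (48.0, 52.1 and 42.9 CPM, against 27.9 and 36.5 CPM in mice 2 and 5), and without those 3 the log2 fold change was 0.52 (adjusted p = 0.0434 by edgeR). The assembly chaperone genes Ric3 and Tmem35a had log2 fold changes of 0.07 and 0.01. Ly6h, another lynx-family gene, had 191 ± 16.7 CPM in the controls and 255 ± 46.6 CPM after ethanol (log2 fold change 0.42, adjusted p = 0.00449 by edgeR), under the fold minimum. Lynx1, the founding brake on these receptors, had 402 ± 34.8 CPM in the controls and 350 ± 34.2 CPM after ethanol (log2 fold change -0.20, adjusted p = 0.0495 by edgeR), also under it.

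Of 20 partners of muscarinic signalling, all tested, 1 was called lower and none higher, a share near the 4.09% of all genes called lower. This was Rgs4, which ends Gq and Gi signals and which had 398 to 529 CPM in the controls and 251 to 364 CPM after ethanol (log2 fold change -0.63, standard error 0.09, adjusted p = 4.50e-05 by edgeR). Without ethanol-administered mice 1, 3 and 4 it was -0.44, under the fold minimum. With no fold minimum, 6 of the 20 were lower and 4 higher, where 11.6% and 12.1% of all genes were. Those lower included Rgs2 (log2 fold change -0.45), the inositol trisphosphate receptor gene Itpr1 (-0.42) and the phospholipase C genes Plcb2 (-0.44) and Plcb4 (-0.39). Those higher included Gnaq, the Gq alpha subunit gene (0.20), the M-channel gene Kcnq3 (0.31) and Kcnj9, a Gi-gated potassium channel gene (0.26). Kcnq5, which also encodes an M-channel subunit, went the other way (log2 fold change -0.27, adjusted p = 0.0153 by edgeR).

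**Figure D5:**
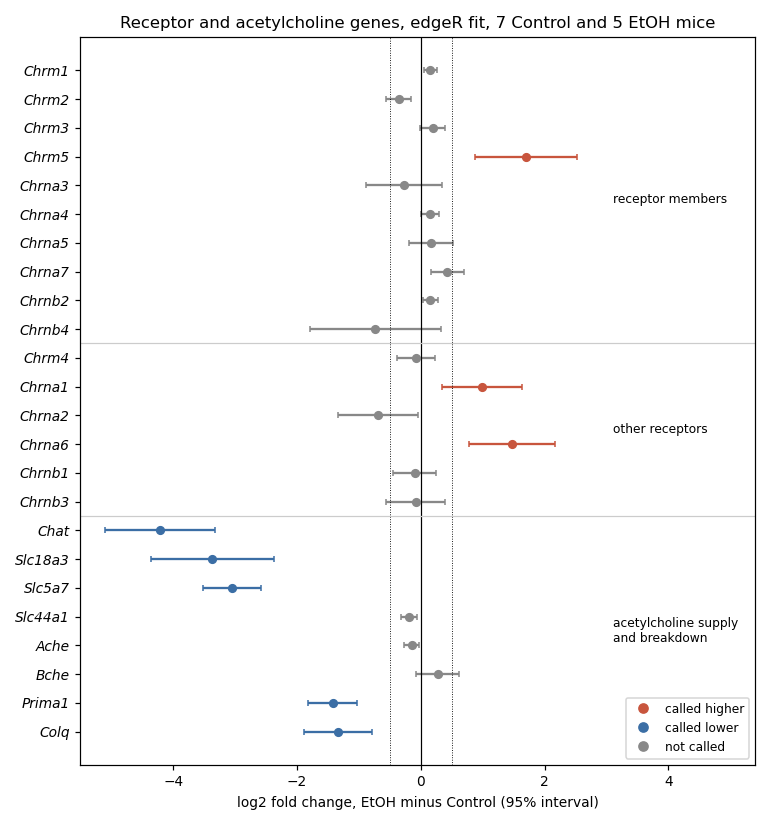
Log2 fold changes (x axis, ethanol-administered minus control, with 95% intervals) from edgeR for the 10 receptor members, the 6 other receptor genes tested and 8 acetylcholine supply and breakdown genes, with dotted lines at the fold minimum of 0.5 either way. Among the members Chrm5 stands apart at 1.70, and Chat, at -4.22, is the lowest of those plotted.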

How the data were processed

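The authors had total RNA from frozen cortex sequenced by BGI, checked reads with FastQC 0.11.9, aligned them with STAR to GRCm39 (Gencode Release 28) and counted them per gene with featureCounts. They deposited estimated counts per gene symbol, not normalized, of which 61 symbols are not whole, so values were rounded. Strand and read-pair settings are not given in the sources used here. Of deposited values from 1 to 12, 74.2% are even, the pattern that counting both reads of a fragment gives, so reads may not be independent. Among the member values, at counts of any size, 68 of 120 are even. Replicate numbers come from the labels, which do not say how libraries map to animals, and p-values measure the spread between libraries.

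Genes were filtered with filterByExpr and tested with edgeR 4.0.16 (TMM, Benjamini-Hochberg over all genes) in R 4.3.3. Members and lists were chosen with earlier results of these data known. Genes are named if members, called genes of the pathway lists or those needed to describe a list's count, genes sharing exons with a member, the 3 most like a called member, or markers that define a list or are near 0. Fibcd1 and the uncalled list genes were picked after their values were seen. Ratios used log2 CPM with a prior count of 2. Exon lengths and positions are from Gencode M39. No 2 libraries of a group agreed within sampling noise. Alternatives were DESeq2 1.42.0, limma 3.58.1 voom, other factors, filters and fold minimums, the replicate block, and mice left out. On simulated counts over 15913 genes, the edgeR fit recovered 175 of 200 genes shifted by 1 on the log2 scale, with 4 false calls. Those counts were drawn independently, without double-counted reads or differences in tissue content. They do not measure the recovery of smaller shifts, such as those of Chrm1, Chrm2 and Chrna7.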

Additional observations from a re-analysis of the deposited data

Results flagged for a closer look

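Of 34 sets of values checked for a mouse far from its group, where chance gives about 1.7, 1 held such a mouse. This was Chrna7 in control mouse 5, the deepest control library, at 3.90 log2 CPM, with the next control mouse at 3.42. Without that mouse the log2 fold change of Chrna7 was 0.54 in place of 0.43.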

How the results depend on the processing

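Chrm5 kept its call under DESeq2 (log2 fold change 1.71), limma voom (1.61) and all 12 fits that left out 1 mouse. The count of receptor members called higher, 1, became 0 with at least 10 counts in every mouse (Chrm5 was then untested), with halved counts (Chrm5 and Chrnb4 filtered out), with the replicate block and without the 3 ethanol-administered mice with the most choroid plexus RNA, and 2 without the deepest library of each group. With no fold minimum the counts called higher and lower were 3 and 1 for the members, 4 and 6 for signalling partners, 2 and 1 for assembly and lynx genes, and 1947 and 1863 for all genes, where the main counts for all genes were 674 and 657. With a fold minimum of 1 they were 242 and 282 for all genes, other receptors had 1 higher, assembly genes 0 higher and partners 0 lower. At least 10 counts in every mouse gave 3 supply genes lower and 0 other receptors higher, since Chat, Slc18a3, Chrna1 and Chrna6 were then untested. Other receptors had 1 higher with halved counts or without the deepest libraries. Without the 3 mice, 397 of all genes were higher, with 0 other receptors higher and 0 partners lower. Partners had 1 higher without the deepest libraries. Halved counts and the fit without the 3 mice were chosen after seeing the data.

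Leaving out 1 mouse at a time gave 1 to 2 members higher (2 without control mouse 5), 1 to 2 other receptors higher and 0 to 1 lower (1 without control mouse 3 or 6), 0 to 1 partners higher (1 without control mouse 5) and 1 to 3 lower (3 without ethanol-administered mouse 5), and a Chrna7 to Chrnb2 difference of 0.25 to 0.38, with an exact permutation p above 0.05 in 9 of 12 fits. Same-numbered mice did not deviate together (correlations from -0.108 to 0.0182, and 0 of 5 mice matched their own number best), so numbers were not taken as pairs. With the replicate block, the log2 fold change of Chrm5 was 1.43 (edgeR adjusted p = 0.0508), that of Chrm1 was 0.18 (adjusted p = 0.0554), partners had 1 higher and 2 lower, and the ratios differed by -0.52 (Chrm2 to Chrm1, exact permutation p = 0.0625, the smallest that 5 pairs allow), 1.13 (Chrm5 to Chrm1, p = 0.125) and 0.22 (Chrna7 to Chrnb2, p = 0.188). Counts of a few reads limit Chrm5 and Chrnb4.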
